A study of Mus musculus with 20 samples.

Results

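Mouse aortas exposed to rosiglitazone at 10 mg/kg/day were compared with aortas exposed to 3 mg/kg/day. The comparison used 11 of the 20 arrays of the series, chosen by their labels: 5 arrays of the higher dose against 6 of the lower dose, each dose sampled after 2 and after 14 days. All of these mice were adult C57BL/6J animals that took the drug in their food, and each array held RNA pooled from 8 aortas, so an array stands for a pool and not for a mouse. There were 3 arrays of 3 mg at day 2, 3 of 3 mg at day 14, 3 of 10 mg at day 2 and 2 of 10 mg at day 14. In each dose the 2 times counted equally, so the 2 arrays of 10 mg at day 14 carried as much weight as the 3 of day 2. Another 3 arrays came from chow-fed controls of the same strain, and they are quoted as the level without the drug but enter no difference between the doses. The remaining 6 arrays, from P465L mutants of PPARγ and their wild-type littermates, served to estimate the spread within groups. With all other arrays they also set which probe sets and genes were tested, and the slope of the adipocyte covariate used below. Nothing in the labels says whether pools of a group were collected on different days, so p-values measure the spread between these pools.

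Rosiglitazone is a thiazolidinedione that binds and activates PPARγ, a nuclear receptor that pairs with RXR on DNA. PPARγ is best known for switching on genes of fatty acid uptake, binding and storage in adipocytes, and it is also present in the endothelium and smooth muscle of vessels.

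Genes that responded to the drug mostly stood further from chow at the higher dose, but the steps were small and no single gene passed the test. Of 48 genes called in the average of the 4 rosiglitazone groups against chow, 41 were further from chow at 10 mg than at 3 mg. Enzymes of fatty acid synthesis, led by Fasn and Scd1, stood lower at 10 mg, and heat shock proteins of the cytosol and mitochondria, led by Hspa1a, stood higher. Pon1, which encodes the paraoxonase carried on high density lipoprotein, had signals of 534 to 927 in the 5 arrays of 10 mg and of 1174 to 2417 in the 6 arrays of 3 mg. Of all genes tested, 66 (0.596%) had every array of 10 mg below every array of 3 mg. Across all genes, limma called 0 of 11076 (0%) between the doses at an adjusted p under 0.05, with a smallest adjusted p of 0.133. At an unadjusted p under 0.05 there were 1405 genes, of which 632 (5.71%) stood higher and 773 (6.98%) lower at 10 mg. Leaving out the 3 mg, 2 days array A lowered that number to 908, leaving out the 10 mg, 14 days array A lowered it to 903, and no other array moved it by more than 1.5 times. The 95% interval of a typical gene reached 0.24 log2 units (1.18-fold) to either side of its difference. A smaller difference of such a gene could not be resolved with these arrays even before adjustment. After adjustment much larger ones were not called, among them that of Pon1 (-1.13).

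The genes that the drug itself moved were defined by the average of all 4 rosiglitazone groups against chow, in which 48 genes (0.433% of those tested) passed at an adjusted p under 0.05, 26 of them risen and 22 fallen. That list depends on the chow arrays: without chow array C it held 1 gene, without A 3 and without B 11, and among the treated arrays it ranged from 28 to 83. Errors of the drug average and of the dose difference are nearly unlinked by design, with a correlation of 0.05, because every treated array enters the average with the same sign. Of the 26 risen genes, 20 stood higher at 10 mg than at 3 mg, and of the 22 fallen genes 21 stood lower. For comparison, 5343 of all 11076 genes (48.2%) stood higher at 10 mg. An unadjusted p under 0.05 was reached by 18 of the 48, and each of these 18 was further from chow at 10 mg. Over all 11076 genes, 1405 (12.7%) reached it. The low correlation covers the differences and not their p-values. Both tests use the same estimated spread of a gene, so a call as responder favours a small p for dose as well. The median dose difference was 0.15 over the risen and -0.18 over the fallen genes, against -0.01 over all genes, on the log2(signal + 72) scale used for all differences here. With any array of the 11 left out, 37 to 46 of the 48 stood further from chow at 10 mg, and each time taken alone gave 40.

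Acaa1b encodes a peroxisomal thiolase of fatty acid breakdown and is a classical PPAR target (chr9:119148043-119157093, GRCm38). It was the gene that the drug raised most among the 48, by 2.00 log2 units over chow. Its signals were 7034, 1601 and 2660 at 3 mg and 3760, 5275 and 4535 at 10 mg after 2 days, and 2206, 6146 and 3286 at 3 mg and 9150 and 5692 at 10 mg after 14 days, with 632 to 1575 on chow. All 10 mg arrays lay within or above the range of the 3 mg arrays, which was wide at both times. The difference between doses was 0.76 (SE 0.34, 95% interval 0.05 to 1.47, limma adjusted p = 0.37).

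Btnl9 encodes a butyrophilin-like membrane protein (chr11:49168325-49187089). It read 820, 350 and 874 at 3 mg and 1041, 914 and 897 at 10 mg after 2 days. After 14 days it read 663, 939 and 828 at 3 mg and 1702 and 1192 at 10 mg, and chow arrays lay between 245 and 356. The doses did not overlap at either time, and the difference was 0.65 (95% interval 0.20 to 1.10, adjusted p = 0.261). Of all genes, 1554 (14%) did not overlap at day 2, 2217 (20%) at day 14 and 273 (2.46%) at both times in the same direction.

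Rbp7 encodes a retinoid-binding protein and rose by 1.97 with the drug. It read 1276, 698 and 1903 at 3 mg against 1413, 2243 and 1083 at 10 mg after 2 days, and 652, 1886 and 1119 against 2376 and 1455 after 14 days. The doses overlapped at both times, and the difference of 0.51 had an interval from -0.15 to 1.16. Smaller differences in the same direction were found for the soluble epoxide hydrolase Ephx2 (0.36, interval -0.03 to 0.75), the fatty acid binding protein Fabp5 (0.35, interval -0.01 to 0.72) and the kinase Map3k12 (0.35, interval 0.09 to 0.61, but -0.01 in its other probe set above the level for testing). The other such probe set of Fabp5 gave 0.16.

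Other lipid genes that rose with the drug showed no such step in their brightest probe sets. Fabp4, the adipocyte and endothelial fatty acid binding protein, had already reached 89342 to 146543 in the 6 arrays of 3 mg, with 47529 to 78852 on chow, and lay between 108465 and 137313 in the 5 arrays of 10 mg. Its dose difference was -0.02 (interval -0.34 to 0.31), and its sign turned under quantile normalization, array weights, the mean of its probe sets, the adipocyte covariate and the loss of some single arrays. The other Fabp4 probe sets above the level for testing gave 0.01, 0.34 and 0.06, so the probe sets did not give 1 answer. Pdk4, which encodes a kinase that shuts off pyruvate entry into mitochondria, differed by 0.07 (interval -0.53 to 0.66). Angptl4, a secreted inhibitor of lipoprotein lipase, differed by -0.20 (interval -0.69 to 0.29). Intervals of this width do not show that the doses acted alike on these 3 genes.

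Among the 22 genes that fell with the drug, Pfn1, Haghl and Cyp2f2 had the largest steps between doses. Pfn1, which encodes the actin-binding protein profilin, read 27084, 23990 and 20685 at 3 mg and 15462, 12725 and 15025 at 10 mg after 2 days, and 19382, 17518 and 22009 at 3 mg and 14249 and 16123 at 10 mg after 14 days. Chow arrays lay between 25594 and 27122, and only 1 array of 3 mg reached that range. All 5 arrays of 10 mg were below all 6 of 3 mg, as in 66 of all genes tested (0.596%). The dose difference was -0.55 (SE 0.10, interval -0.76 to -0.33, adjusted p = 0.159). Haghl, a gene related to hydroxyacylglutathione hydrolase, differed by -0.58 (interval -0.87 to -0.30), and the cytochrome P450 gene Cyp2f2 by -0.55 (interval -1.01 to -0.09). Limd2 was the exception among the fallen genes, with a difference of 0.02.

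**Figure D1:**
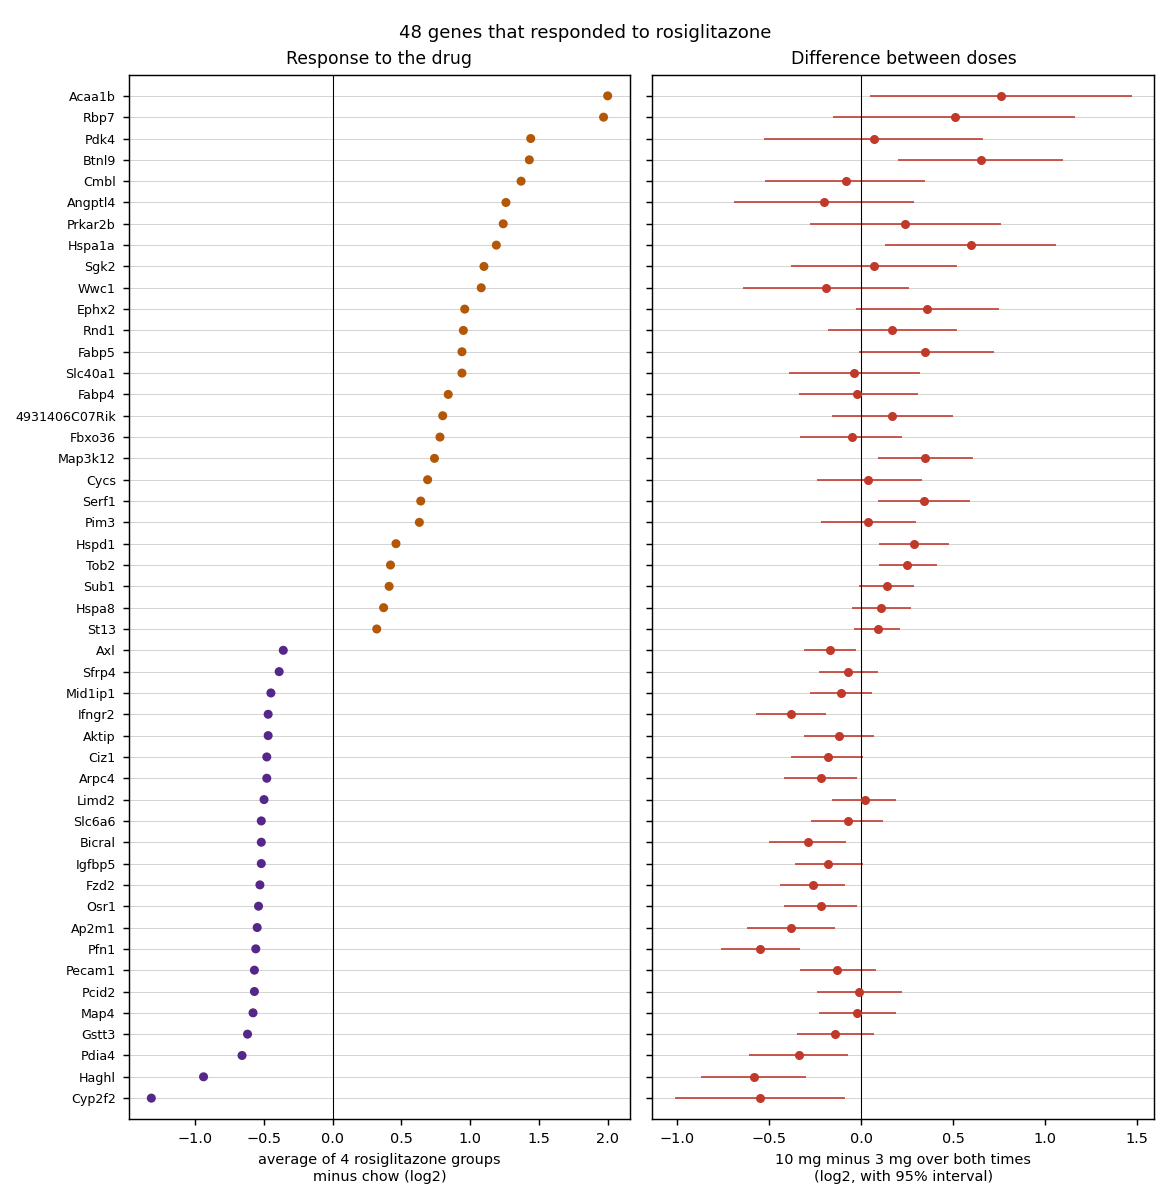
The 48 genes called in the average of the 4 rosiglitazone groups against chow, with that average on the left and the difference between 10 and 3 mg over both times on the right, both in log2 units. Bars are 95% intervals of the dose difference, and 20 of the 26 risen genes have a dose difference above 0 while 21 of the 22 fallen genes have one below 0.

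The receptors themselves showed no difference that passed. Pparg, which encodes the drug's target, read 903 to 2939 in the 6 arrays of 3 mg and 715 to 2152 in the 5 arrays of 10 mg, a difference of -0.34 (interval -0.95 to 0.26). Ppara stood 1.03 above chow on the drug average, which was not called, and its doses differed by 0.10 (interval -0.41 to 0.61). Ppard differed by -0.13 (interval -0.49 to 0.23) and the partner receptor Rxra by -0.28 (interval -0.52 to -0.04, adjusted p = 0.348). The other Rxra probe set above the level for testing gave -0.05. Among known PPAR targets in lipid handling, 28 were tested, and 14 of them stood higher and 14 lower at 10 mg, with a median of 0.01 against -0.01 for all genes. That even split joined opposite directions at the 2 times: 22 of the 28 stood lower at 10 mg after 2 days (median -0.19) and 22 stood higher after 14 days (median 0.22). The count of higher members also turned on single arrays: it was 4 without the 3 mg, 2 days array B, 8 without the 10 mg, 14 days array A and 9 without the 3 mg, 14 days array A. Acaa1b had the largest difference of the list and Ech1, an enoyl-CoA isomerase, the lowest at -0.34.

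Adipocyte markers also stood lower at 10 mg after 2 days. The adipocyte score, a mean log2 signal over 13 measured markers of 15 listed, ranged from 11.03 to 12.34 in the 3 mg arrays and from 11.23 to 11.56 in the 10 mg arrays. The 3 mg, 2 days array A was the highest of the 11 and the 3 mg, 14 days array A the lowest. The score of 10 mg minus that of 3 mg was -0.27 over both times, -0.42 after 2 days and -0.13 after 14 days, and all 11 tested markers stood lower at 10 mg over both times. In a longer list of 17 tested adipocyte markers, 14 stood lower over both times (median -0.20), but 9 stood higher at day 14 (median 0.01). Without the 3 mg, 2 days array A, 11 of the 17 stood lower and the median was -0.03. Without the 3 mg, 14 days array B the median was -0.05, and without the 10 mg, 14 days array B -0.08. The summed signal of the markers was 93664 to 133287 at 10 mg, 76755 to 210128 at 3 mg and 63148 to 96541 on chow. Lep and Tshr were below the level for testing but were part of the score. Tshr read 309, 389 and 473 at 3 mg and 106 and 40 at 10 mg after 14 days, so the day 14 score leans on a weakly measured gene. In whole aortas, fewer cells of a type and less RNA per cell cannot be told apart.

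When the adipocyte score entered the model, limma called 6 genes between the doses at an adjusted p under 0.05: Acaa1b, G0s2, Ephx2 and Fabp5 were higher and Pon1 and Fasn lower at 10 mg. In that fit Acaa1b differed by 1.19 (adjusted p = 0.0021), Ephx2 by 0.58 (adjusted p = 0.0205), Fabp5 by 0.55 (adjusted p = 0.0412) and G0s2, an inhibitor of adipose triglyceride lipase, by 0.71 (adjusted p = 0.0205). Of the 28 PPAR target genes, 24 then stood higher at 10 mg, 15 of them at an unadjusted p under 0.05, while 507 of all 11076 genes (4.58%) stood higher at that threshold in the same fit and 5375 stood higher in all. Other lists turned the same way in that fit, so the turn was not particular to PPAR targets. Of the 17 adipocyte markers, 14 stood higher, 4 of them at an unadjusted p under 0.05, against 3 higher without the covariate. Of 47 tested genes of oxidative phosphorylation 24 stood higher, against 9. Of 19 tested genes of the tricarboxylic acid cycle 12 stood higher, against 3. Of the 48 responders, 46 were further from chow. The score contains Pparg and other genes that the drug can regulate, so the covariate may also take away part of a response. It also contains Lep and Tshr, which were below the level for testing. The slope of the score was fitted over all 20 arrays, so the chow, wild-type and P465L arrays also shaped these adjusted differences. The part of adipocyte content in the plain differences was not tested beyond this fit.

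**Figure D2:**
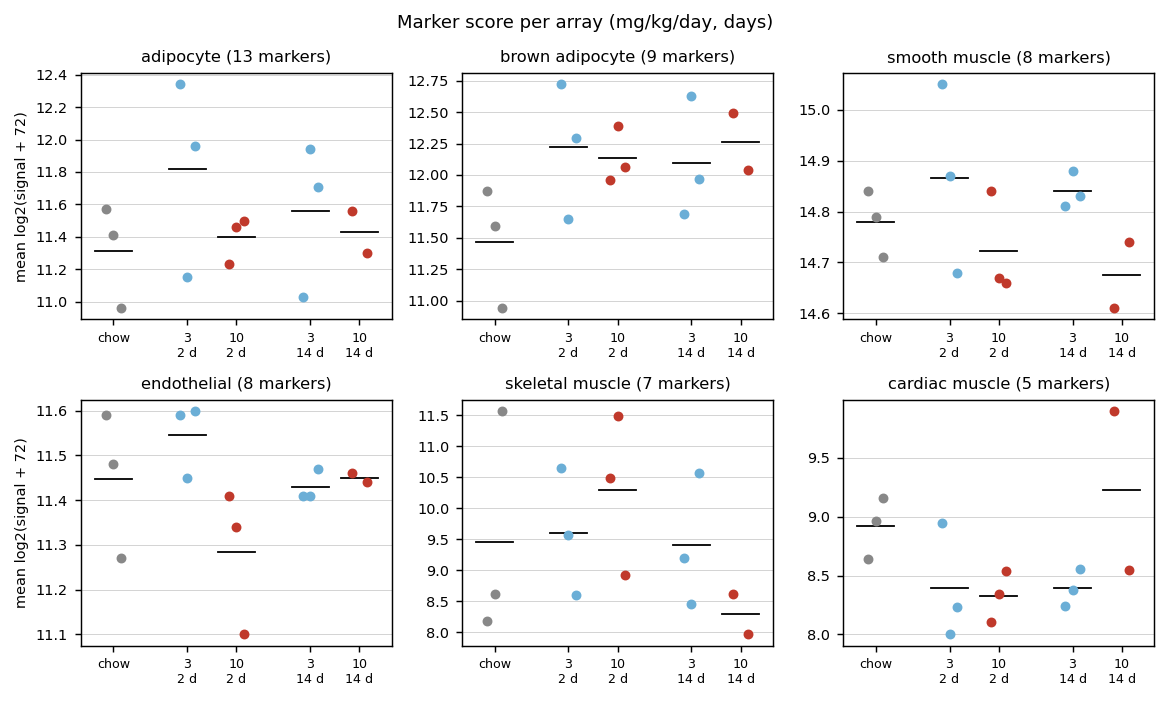
Marker scores per array (mean log2(signal + 72) over the measured markers of each cell type), with points for arrays, horizontal lines for group means, grey for chow, blue for 3 mg and red for 10 mg. The adipocyte score spans 11.03 to 12.34 in the 3 mg arrays and 11.23 to 11.56 in the 10 mg arrays, and the skeletal and cardiac muscle scores are spread widely within groups.

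Fatty acid and triglyceride synthesis stood lower at 10 mg almost throughout. Of 23 tested members, 22 stood lower and 1 higher, with a median of -0.22, and 7 were lower at an unadjusted p under 0.05 (Scd1, Fasn, Srebf1, Acaca, Acly, Fads2 and Me1). The share of all genes lower at that threshold was 6.98%. Pck1 had the highest difference of the list and Fasn the lowest.

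Fasn encodes fatty acid synthase (chr11:120805958-120825166). It read 47746, 19739 and 37116 at 3 mg and 13562, 15729 and 13823 at 10 mg after 2 days, and 11683, 17564 and 17666 at 3 mg and 13602 and 9174 at 10 mg after 14 days. Chow arrays read 27361, 30991 and 22492. The doses were apart at day 2, with 2 of the 3 arrays of 3 mg above chow, and overlapped at day 14, when all 5 arrays of both doses lay below chow. Over all genes, 1554 (14%) had the doses apart at day 2. The difference over both times was -0.82 (SE 0.22, interval -1.27 to -0.37, adjusted p = 0.227).

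Scd1, the stearoyl-CoA desaturase that makes monounsaturated fatty acids (chr19:44394450-44407709), read 90232, 43882 and 68212 at 3 mg and 36155, 34178 and 34453 at 10 mg after 2 days. After 14 days it read 34562, 42970 and 47282 at 3 mg and 39851 and 24000 at 10 mg, with 48929 to 74796 on chow. As for Fasn, the doses were apart at day 2 and overlapped at day 14. The difference was -0.65 (interval -0.99 to -0.31, adjusted p = 0.21). Srebf1, which encodes the transcription factor SREBP1 that drives this pathway, differed by -0.31 (interval -0.52 to -0.09), and the acetyl-CoA carboxylase gene Acaca by -0.58 (interval -0.99 to -0.17). Scap encodes the escort protein that carries SREBPs to the Golgi for activation. Its signals were 2104 to 2664 in all 5 arrays of 10 mg and 2842 to 4079 in all 6 of 3 mg, with 2340 to 3671 on chow, and its difference was -0.49 (interval -0.69 to -0.28, adjusted p = 0.173). Such a separation, with 10 mg below 3 mg, was found for 66 of all genes tested (0.596%).

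At day 2, 22 of the 23 synthesis genes stood lower (median -0.38), and at day 14, 16 did (median -0.11), and the difference between the times was not called for any gene. Leaving out the 3 mg, 2 days array A, the one with the highest adipocyte score, left 20 of 23 lower and moved the median to -0.12. Leaving out the 10 mg, 14 days array B left 18, with 4 at an unadjusted p under 0.05, against 6.04% of all genes so lower. In the model with the adipocyte score 14 of 23 stood lower and the median was -0.02, while Fasn still differed by -0.55 (adjusted p = 0.0229). Cholesterol synthesis, the other arm that SREBPs control, had 11 of 16 tested members lower, with a median of -0.08.

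Heat shock proteins of the cytosol and mitochondria stood higher at 10 mg. Of 19 tested chaperones, 18 stood higher and 1, Hspb8, lower, with a median of 0.22, and 8 were higher at an unadjusted p under 0.05 (Hsp90aa1, Hspd1, Hspa4l, Hspa1a, Hsph1, Ahsa1, Dnaja1 and Chordc1). The share of all genes higher at that threshold was 5.71%. Chaperones of the endoplasmic reticulum, which answer to other sensors, did not share this pattern in counts: 9 of 19 stood higher, with a median of -0.01.

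Hsp90aa1 encodes the inducible form of the cytosolic chaperone HSP90 (chr12:110691036-110696395). It read 32777, 40732 and 38728 at 3 mg and 45540, 45082 and 50616 at 10 mg after 2 days, and 43174, 39719 and 33396 at 3 mg and 44045 and 48444 at 10 mg after 14 days, with 31220 to 35961 on chow. Every array of 10 mg was above every array of 3 mg, as in 48 of all genes tested (0.433%). The difference was 0.30 (SE 0.09, interval 0.12 to 0.48, adjusted p = 0.254).

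Hspa1a encodes the stress-inducible chaperone HSP70 (chr17:34969359-34972156). It rose by 1.19 with the drug over chow, where it read 7422 to 10022. It read 13525, 14629 and 22605 at 3 mg against 28862, 16293 and 26807 at 10 mg after 2 days, and 24920, 17468 and 9742 against 25041 and 27503 after 14 days. The doses overlapped after 2 days and did not after 14, and the difference was 0.60 (interval 0.13 to 1.06, adjusted p = 0.309). At day 14, with 2 arrays of 10 mg, 2217 of all genes (20%) did not overlap. Hspa1b is a near-identical copy whose transcripts the probes may not separate, so the 2 genes are not independent.

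Hspd1, the mitochondrial chaperonin, differed by 0.29 (interval 0.10 to 0.48), and Hsph1, which exchanges nucleotide on HSP70, by 0.39 (interval 0.09 to 0.69). Ahsa2, an activator of HSP90 outside the list, was among the 10 genes with the smallest p of those higher at 10 mg, with a difference of 0.55 (interval 0.26 to 0.83, adjusted p = 0.21). The chaperone counts varied little with single arrays: 17 to 19 of 19 stood higher with any array left out, and 18 when the adipocyte score was in the model. The number at an unadjusted p under 0.05 ranged from 4, without the 3 mg, 14 days array C, to 11, and was 5 without array A of either 10 mg group. With single arrays left out, the share of all genes higher at that threshold ran from 3.63% to 7.62%. All 19 stood higher at day 14 (median 0.31) and 12 at day 2 (median 0.09).

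An 8-base part of the heat shock element, the binding motif of heat shock factors, is printed for 3 of these genes. Each carries it upstream of its start site, 2 with a step between the doses and 1 without. The whole element was not searched. The motif searched was GAANNTTC, which reads the same on both strands and was searched alone, in the 250 bases before each start site in RefSeq promoters of GRCm38.p6. It was present in 6.69% of 32851 such windows, and 2088 of 27025 genes (7.73%) had a window that held it. Of the 19 tested chaperones 15 had an entry in that table, with 20 windows, and 6 of these genes, each in 1 window, held a match: Dnaja1, Hspa1a, Hspa1b, Hspb1, Hspd1 and Hspe1. The matches of Hspd1 and Hspe1 are the same bases, since these genes share a promoter, and the window of Hspa1b around its match is identical to that of Hspa1a. Sequences run 5′ to 3′ on the gene's strand with the match in capitals, and a further match of Hspb1 stands in lower case to its left.
Dnaja1, chr4:40722304-40722391, plus strand: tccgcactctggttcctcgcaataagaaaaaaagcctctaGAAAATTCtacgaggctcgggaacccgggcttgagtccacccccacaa
Hspa1a, chr17:34972213-34972300, minus strand: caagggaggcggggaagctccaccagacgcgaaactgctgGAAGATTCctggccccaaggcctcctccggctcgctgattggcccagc
Hspb1, chr5:135887782-135887869, plus strand: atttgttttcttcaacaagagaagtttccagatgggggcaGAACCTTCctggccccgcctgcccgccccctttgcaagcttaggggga
Counted from the start site, the printed match begins at position -124 in Dnaja1, -104 in Hspa1a and -97 in Hspb1. The dose difference was 0.39 for Dnaja1, 0.60 for Hspa1a and 0.01 for Hspb1. A match describes these letters and shows no binding.

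**Figure D3:**
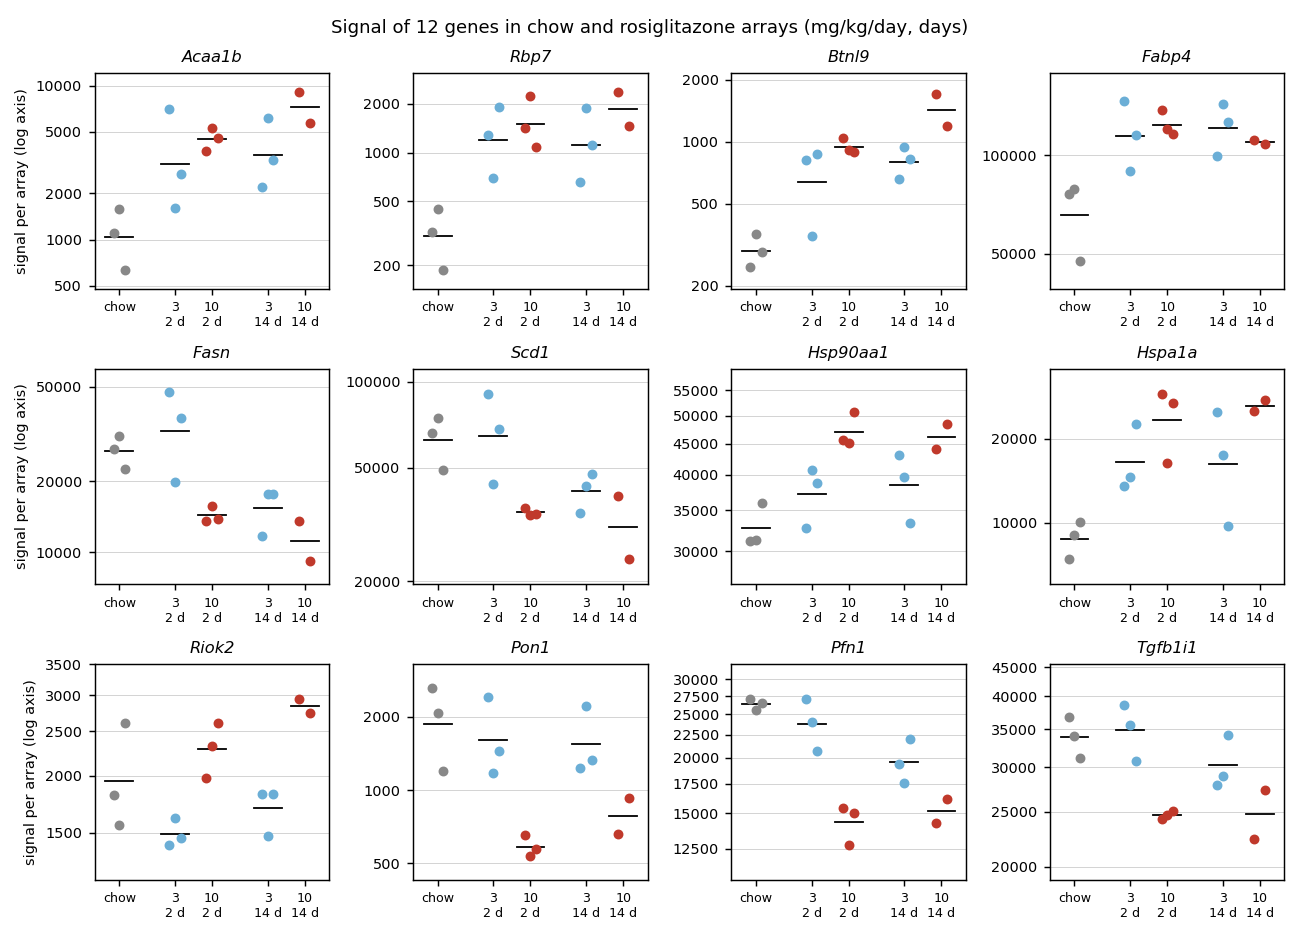
Signal of 12 genes in each chow (grey), 3 mg (blue) and 10 mg (red) array at day 2 and day 14, on a log axis, with horizontal lines for group means taken on the log2(signal + 72) scale. Pon1, Pfn1, Tgfb1i1, Riok2 and Hsp90aa1 have no overlap between the 5 arrays of 10 mg and the 6 of 3 mg, while Fabp4 overlaps at both times. Of all 11076 genes, 48 (0.433%) lay wholly higher and 66 (0.596%) wholly lower at 10 mg. All of the 5 genes but Hsp90aa1 were named for a small p of this comparison, which favours separation.

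Genes of the vessel wall stood slightly lower at 10 mg. Smooth muscle contractile genes, which identify the main cell type of the aorta, had 16 of 20 lower with a median of -0.15, and their 8 defining markers had summed signals of 344598 to 447468 at 10 mg and 363292 to 495461 at 3 mg. Quantile normalization moved that median to -0.03, so most of this shift depended on the scaling. Tpm1, a tropomyosin, had the lowest difference at -0.26, with -0.19 and 0.35 in its other probe sets above the level for testing. The intermediate filament gene Synm had the highest at 0.39, with 0.01 in its other such probe set. Collagens and elastic fibre genes had 23 of 26 lower with a median of -0.14 (-0.08 under quantile normalization), and 5 were lower at an unadjusted p under 0.05, against 6.98% of all genes. That number moved with the share of all genes: it was 2 without the 10 mg, 14 days array A (4.51% of all genes), 14 without the 10 mg, 2 days array A (8.49%) and 12 without the 3 mg, 2 days array C (10.9%). Emilin1, a glycoprotein of elastic fibres, was the lowest at -0.36 (interval -0.58 to -0.14). Col1a1, a chain of type I collagen, read 36235 to 52473 at day 2 and 30143 to 44357 at day 14 over both doses, with the 10 mg arrays below the 3 mg arrays at each time, and differed by -0.34 (interval -0.53 to -0.15, adjusted p = 0.23). Of all genes, 273 (2.46%) were separated at both times in the same direction. Plod2, a collagen-modifying lysyl hydroxylase, was the highest at 0.27. Fibroblast and adventitial markers had 15 of 16 lower (median -0.13, or -0.06 under quantile normalization). Endothelial markers had 16 of 22 lower over both times (median -0.07), with a median of -0.20 at day 2, but 13 of 22 stood higher at day 14 (median 0.05). Macrophage markers had 16 of 19 lower over both times (median -0.08), with a median of -0.13 at day 2, but 11 of 19 stood higher at day 14 (median 0.03), and without the 3 mg, 2 days array A 11 were lower and the median was -0.04. All 6 tested genes of MHC class II antigen presentation stood lower over both times (median -0.21), with a median of -0.39 at day 2 and -0.05 at day 14. They ran from -0.08 for H2-DMa to -0.49 for H2-DMb2, whose 2 other probe sets above the level for testing gave -0.03 and -0.07.

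**Figure D4:**
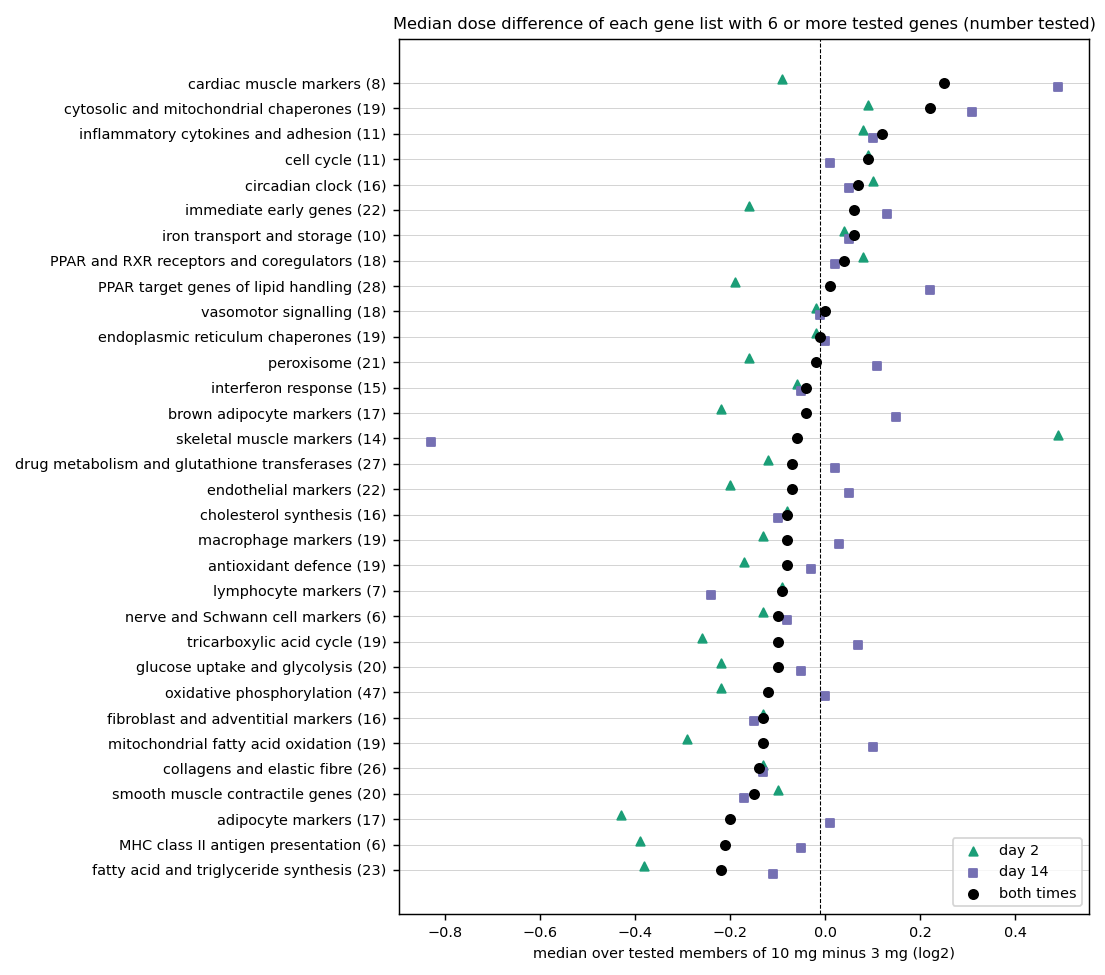
Median of the difference between 10 and 3 mg (log2) over the tested members of each gene list with 6 or more tested genes, for both times together (black), day 2 (triangles) and day 14 (squares), with the dashed line at the median of all genes. Chaperones lie at 0.22 and fatty acid and triglyceride synthesis at -0.22, and skeletal muscle markers have the widest gap between times, from 0.49 at day 2 to -0.83 at day 14.

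The genes with the smallest p of the dose comparison were named by rule, the 10 higher and the 10 lower. They were not called, and their adjusted p ran from 0.133 to 0.21. Among all genes tested, 48 (0.433%) had all 5 arrays of 10 mg above all 6 of 3 mg and 66 (0.596%) had them all below. Of the 10 higher genes Riok2 and Tmem33 were so separated. Riok2, an atypical kinase of ribosome maturation (chr17:17374332-17394899), read 1415, 1614 and 1464 at 3 mg and 1977, 2324 and 2608 at 10 mg after 2 days, and 1824, 1474 and 1825 against 2935 and 2742 after 14 days. Chow arrays read 1819, 1565 and 2603, and so lay across the ranges of both doses. The difference was 0.65 (SE 0.11, interval 0.42 to 0.89, adjusted p = 0.133). The other Riok2 probe sets above the level for testing gave smaller differences of 0.27 and 0.38.

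The other higher genes were Sema6c (1.02), a semaphorin, Fscn1 (0.57), which bundles actin, Nkap (0.55), Ahsa2 (0.55), Cnot4 (0.48), of the CCR4-NOT complex, Med4 (0.43), a Mediator subunit, Mkks (0.43), Vcan (0.40), the proteoglycan versican of the vessel wall, and Tmem33 (0.33). Vcan read 8954 to 13546 at 3 mg and 13266 to 15521 at 10 mg, with 12986 to 14896 on chow. The 2 other Vcan probe sets above the level for testing both gave 0.02, and that of Fscn1 gave 0.02. For Cnot4 the 4 other such probe sets gave -0.03, 0.24, 0.07 and 0.35. The sizes reported for Vcan, Fscn1 and Cnot4 were not borne out by their other probe sets. Those of Tmem33 gave 0.14, 0.31 and 0.12, all smaller than its reported 0.33, and that of Mkks gave 0.46.

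Of the 10 lower genes, Pfn1, Pon1, Scap, Unc119, Vcpkmt, Lsp1 and Tgfb1i1 were separated between the doses. Like the 10 higher genes, they were picked by a small p of this same comparison. That rule favours separation, so it adds no support. Pon1 (chr6:5168090-5193987) read 2417, 1174 and 1445 at 3 mg and 657, 534 and 575 at 10 mg after 2 days. After 14 days it read 1237, 2211 and 1335 at 3 mg and 661 and 927 at 10 mg. The 3 chow arrays read 2640, 2083 and 1195, which overlapped the 3 mg arrays and lay above every array of 10 mg. Its difference of -1.13 (SE 0.22, interval -1.59 to -0.67, adjusted p = 0.159) was the largest in size of the 20 named genes, and in the model with the adipocyte score it was -0.90 (adjusted p = 0.0205). Tgfb1i1, the focal adhesion adaptor Hic-5 of smooth muscle, read 22406 to 27376 at 10 mg and 27874 to 38577 at 3 mg, a difference of -0.39 (interval -0.57 to -0.21). Lsp1, a leukocyte actin-binding protein, read 1859 to 2296 at 10 mg and 2439 to 3072 at 3 mg, a difference of -0.42. Cavin1, which coats caveolae, differed by -0.51, and its other probe sets gave -0.43 and 0.16. Mbd6 and Hnrnpl, a splicing factor, both differed by -0.61. Over these 20 genes, 7 had other probe sets above the level for testing, and 13 of these 15 probe sets shared the sign of the reported one, among them the values of 0.02 for Vcan and Fscn1.

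The day 2 and day 14 differences used different arrays, so they repeat the dose comparison without sharing a sample. At day 2 limma called 0 genes (0%), with 1480 at an unadjusted p under 0.05 and a smallest adjusted p of 0.173. At day 14, where 10 mg had 2 arrays, 0 genes (0%) were called, with 562 (5.07%) at an unadjusted p under 0.05 and a smallest adjusted p of 0.772. With no difference between the doses, 554 genes would be expected at that threshold. The day 14 count was close to that number, and the day 2 count (13.4% of genes) was above it. Over all genes 6569 of 11076 (59.3%) had the same sign at both times, and their differences correlated across genes with r = 0.16 and rho = 0.21. Genes are not independent replicates, and these are descriptions. Of 100 genes at an unadjusted p under 0.05 at both times, 88 had the same sign, 34 higher and 54 lower. Of the genes named over both times, Riok2 (0.72), Med4 (0.57) and Mbd6 (-0.75) were also named at day 14, and Pfn1 (-0.73) and Cavin1 (-0.78) at day 2.

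At day 2 the 5 higher genes with the smallest p were Mier1, Clic6, Zmat1, Atad2 and Snhg14, and the 5 lower were Tcf25, Pfn1, Cavin1, Mapkapk2 and Psmb2. For Tcf25 the 4 other probe sets above the level for testing did not share that direction: they gave 0.00, 0.16, 0.36 and 0.01 at day 2 and 0.10, 0.22, 0.38 and 0.07 over both times. Mier1, a transcriptional repressor, read 4931, 5104 and 5720 at 3 mg and 7641, 7237 and 7618 at 10 mg, a difference of 0.51 that was 0.00 at day 14, and its other probe set above the level for testing gave 0.09 at day 2. At day 14 the 5 higher were Nr4a3, Med4, Tank, Riok2 and Ciao2a, and the 5 lower Blnk, Mbd6, Mettl18, Nos1ap and Klhl30. Tank, an adaptor of innate immune signalling, read 1819, 1489 and 1822 at 3 mg and 5630 and 2561 at 10 mg, so its difference of 1.13 came mostly from array A.

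Without the 10 mg, 14 days array B, limma called 9 genes at day 14 at an adjusted p under 0.05, with the remaining array assumed to vary like the other groups. They included Tank, Nr4a3, Klhl30 and Blnk, and also the heart muscle genes Myh6 and Actc1. In the array that remained Myh6 read 2548, against 475 in the array left out and 254 to 394 in the 3 mg arrays of that day, so the calls describe a single pool.

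The difference of the dose step between the times was tested as an interaction, and 0 genes (0%) were called, with 486 at an unadjusted p under 0.05 and a smallest adjusted p of 0.918. With no interaction, 554 genes would be expected at that threshold. The 95% interval of the interaction reached 0.48 log2 units for a typical gene. The 10 genes named by rule were Nr4a3, Gsta3, Zfp691, Haus8 and Yars, whose step was higher at day 14, and Mettl18, Enkd1, Stard9, Nkx6-1 and Elmod2, whose step was lower.

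**Figure D5:**
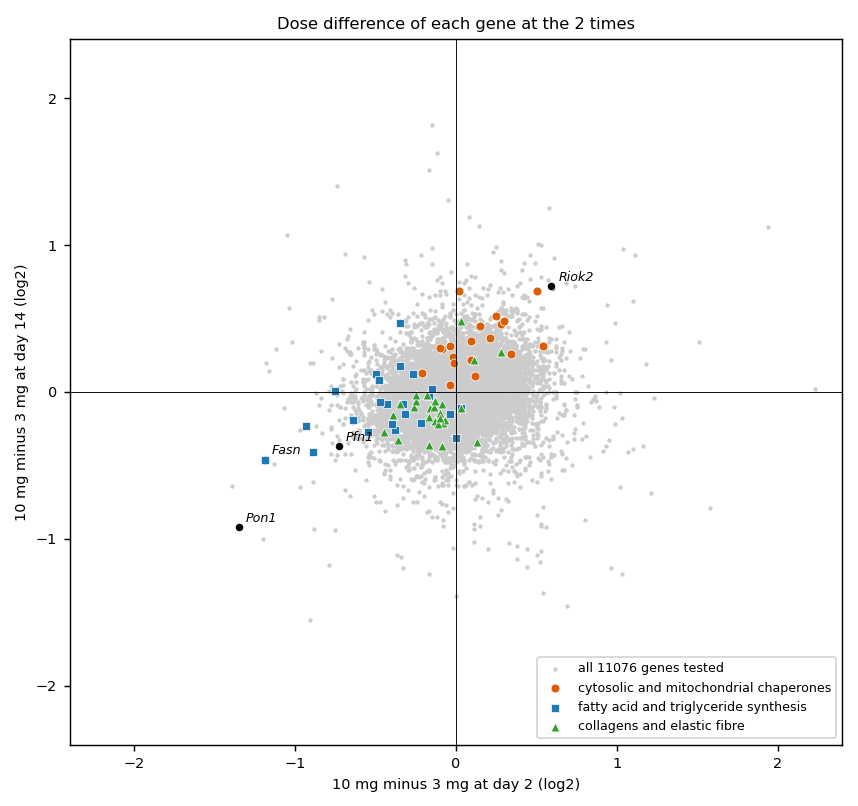
Difference between 10 and 3 mg at day 2 (horizontal) and day 14 (vertical), in log2 units, for all 11076 genes (grey) and for chaperones (orange circles), fatty acid and triglyceride synthesis (blue squares) and collagens and elastic fibre (green triangles). Pon1, Pfn1 and Fasn lie below 0 and Riok2 above 0 at both times, and the grey points as a whole have r = 0.16.

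Array quality varied within both doses, and the Gapdh ratio below was mostly higher at 10 mg. At 3 mg it read 0.962, 0.842 and 0.871 at day 2 and 0.899, 0.934 and 0.914 at day 14. Its part in the dose differences was not tested. The ratio of Gapdh signals from the 3′ and 5′ ends, a measure of RNA integrity, was 0.936 to 0.975 at 10 mg and 0.842 to 0.962 at 3 mg, and that of Actb was 1.21 to 1.26 and 1.18 to 1.35. The median signal was 362.2 to 429.2 at 10 mg and 321.3 to 450.7 at 3 mg. Replicates of a group correlated at 0.964 to 0.982 across genes. The lowest array weights of the 11 were those of the 3 mg, 2 days arrays A (0.39) and C (0.48). In the fit with array weights limma again called 0 genes between the doses, with 719 higher and 1080 lower at an unadjusted p under 0.05. In that fit the median of the adipocyte list was -0.04 and that of fatty acid and triglyceride synthesis -0.12 (19 of 23 lower), and 19 of the 28 PPAR target genes stood higher. Smooth muscle genes lower at an unadjusted p under 0.05 numbered 9 of 20, against 3 without weights, and collagens and elastic fibre genes 13 of 26, against 5, while the share of all genes so lower was 9.75%. Of the chaperones 17 of 19 stood higher (median 0.21), and 44 of the 48 responders were further from chow.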

How the data were processed

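The deposited intensity values were linear signals of probe sets computed with MAS5, per the submitters' processing notes. The version, detection calls and filters are not given in the sources used here. In the values themselves each array has a trimmed mean of 1500, which assumes that most signal is equal between arrays. Of 45101 probe sets, 34945 had 1 symbol, 932 several and 9160 none, and 64 were controls, so 18193 genes were named and the rest left out. Each gene took its brightest probe set, on log2(signal + 72), the 20th percentile as offset. The 11076 genes with a mean of at least 8.73 (the 50th percentile of probe sets, a signal of 354) were tested. Gene positions are from RefSeq on GRCm38.

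A limma 3.58.1 model (R 4.3.3) with 7 group means was fitted to all 20 arrays (13 residual and 7.34 prior degrees of freedom, variance trend), with two-sided tests and Benjamini-Hochberg adjustment over all genes, and was tested on simulated data. Figures and tables used Python 3.11.15, numpy 2.4.6, pandas 2.3.3 and matplotlib 3.10.9. The number of arrays limits the precision.

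The comparison, the gene lists and the responders shown were chosen with earlier results of these data known, so list counts and medians carry no test. Named genes were the 10 in each direction with the smallest p for dose, the 5 in each direction for each time and the interaction, the PPAR receptors, selected responders, and the members with the highest and lowest difference of each list described. Other members were named after their values were seen, as those at an unadjusted p under 0.05 or for their role. Array letters did not pair: over 15 pairs with the same letter in different groups the median correlation of deviations was -0.0471 (-0.290 to 0.261). Alternatives changed the arrays, offset, filter, probe set rule, scaling, variance trend, array weights, adipocyte covariate, dose model and fold, and left out each array.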

Additional observations from a re-analysis of the deposited data

Results flagged for a closer look

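In 5 of the named genes every array of 10 mg lay on one side of every array of 3 mg at day 2 and on the other side at day 14. All 5 were among the 10 genes named for the smallest interaction p. That rule favours opposite steps, so their pattern comes in part from how they were picked. At day 2, 1554 of all genes (14%) were separated in either direction, and 2217 (20%) at day 14. Across all genes 67 (0.605%) had this pattern, 273 (2.46%) were separated at both times in the same direction, and limma's interaction test called none of them (smallest adjusted p 0.918, with 486 of all genes at an unadjusted p under 0.05). Mettl18 read 306 to 467 at 3 mg and 556 to 610 at 10 mg after 2 days, but 582 to 660 and 262 to 332 after 14 days, a change of the dose step of -1.44 (SE 0.29, limma adjusted p = 0.918). For Enkd1 the change was -1.32, for Stard9, a kinesin, -0.94, and for Elmod2 -0.63. Zfp691, a zinc finger gene, went the other way, from -0.74 at day 2 to 1.40 at day 14, a change of 2.14. The adjusted p of these other 4 genes was 0.964.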

How the results depend on the processing

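Single genes were not resolved below about 0.24 log2 units, and the 10 mg, 14 days group had 2 arrays. For the dose difference over both times, the count of 0 called genes held in 24 of the 25 alternatives, and the adipocyte score as a covariate gave 6 (4 higher, 2 lower). The smallest adjusted p ranged from 0.0021 to 0.31. At day 2 and for the interaction no alternative called a gene, and at day 14 leaving out single arrays gave 0 to 9. With the array letter as a replicate block the counts were 0 for dose, day 2, day 14 and interaction and 43 for the responders, and the block moved no count by over 1.5 times. Responders numbered 28 with no variance trend, 266 with array weights, 150 with the adipocyte covariate, 25 at 1.5-fold or more, and 1 to 83 with single arrays left out. Beyond 1.5 times, leaving out 3 mg, 2 days A gave 75, 3 mg, 2 days B 83, 3 mg, 14 days B 29, 10 mg, 14 days A 28, and chow A, B and C 3, 11 and 1. The sign of Fabp4 turned to 0.10 with the mean of its probe sets, 0.13 with quantile normalization, 0.04 with array weights and 0.16 with the covariate, and ranged from -0.11 to 0.07 with single arrays left out (0.01 at the smallest turned value). Pdk4 ranged from -0.16 to 0.29 in the same way (-0.03 at the smallest turned value), and Angptl4 was 0.02 with the covariate. The causes were not tested. List counts without single arrays were alternatives chosen after seeing the data.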

Other observations

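Clock genes were uneven between the doses. Per2, a repressor of the circadian clock, read 2461 to 5160 at 3 mg and 4075 to 7493 at 10 mg, a difference of 0.65 (SE 0.17, limma adjusted p = 0.227) with little change on the drug average (-0.03). Cry1, its partner, also differed by 0.65 (95% interval 0.17 to 1.14), Hlf by 0.46 and the repressor Nr1d1 by -0.33. Over 16 tested clock genes 9 stood higher and 7 lower, with a median of 0.07. The labels used here give no hour of collection.

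Transcripts of neighbouring tissues varied between pools. Skeletal muscle markers had a summed signal of 1781 to 21463 at 10 mg and 2520 to 13458 at 3 mg. Alb, a liver gene, read 23.3 to 298 at 3 mg and 210 to 1269 at 10 mg, with 208 to 1412 on chow, and the acute phase gene Hp read 3590 to 4616 at 10 mg and 4326 to 16255 at 3 mg (difference -0.81, interval -1.33 to -0.29, limma adjusted p = 0.254).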
